A study of Camponotus floridanus with 15 samples.

Results

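In the carpenter ant *Camponotus floridanus*, 17 of 18620 genes with CFLOG identifiers stood high in the larvae of both sequenced instars and lower in every other stage. They were chosen by their measured values. Each of the 15 libraries was first divided by a scaling factor, the median over 9990 genes (those above 0 everywhere) of its value against their geometric mean, and group means were taken of log2(scaled RPKM + 1). A gene was kept if its instar 1 and instar 4 means differed by under 1.5 and both lay at least 1.5 above the mean of each of the other 6 groups. RPKM is a read count divided by gene length and by the size of the library, and a log2 step of 1.5 is the margin on which the whole set rests. Because the rule used all libraries, levels in larvae against other stages are given as descriptions, without a test.

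Poly(A) RNA of whole bodies was sequenced. There were 2 libraries each of embryo, of larvae (instar 1 and instar 4), of early pupa, of late pupae (minor and major) and of minor, and 1 library of male. In this species, workers come as small minors and large majors. The labels name no strain, genotype, treatment or age within a stage and do not say whether animals were pooled or replicates came from separate colonies, so the p-values below rest on a spread that may be technical. In whole bodies, fewer cells of a type and less RNA per cell cannot be told apart.

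Ant larvae are legless, are fed by workers and grow through moults. As pupae they stop feeding while most larval tissues are replaced by adult ones. In insects, genes used mainly by larvae include those for larval cuticle, digestive enzymes, storage proteins made by the fat body, and silk. Which of these classes the 17 genes belong to is not known here, because the files pair no identifier with a gene name and none matched the RefSeq genes of this species. For the same reason marker genes of the labelled stages could not be looked up, and no function or sequence is given.

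The 17 genes together took between 2.68% and 4.01% of the RPKM total in the 4 larval libraries. They took 0.725% and 1.18% in embryo, and between 0.011% and 0.065% in the 9 pupal and adult libraries. Most of the larval share came from a pair of genes. Reads recovered from the steps of the values covered only the 14136 genes with a recovered length. They numbered from 2870000 (late pupa minor replicate 2) to 8178000 (minor replicate 1) and are not the library sizes used for RPKM. Those sizes ran from 16740000 (embryo replicate 1) to 34150000 (minor replicate 1), and the floor below rests on them. A floor of 3 reads equals 0.0879 to 0.179 RPKM for a gene 1000 nt long and covers counting error only.

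**Figure D1:**
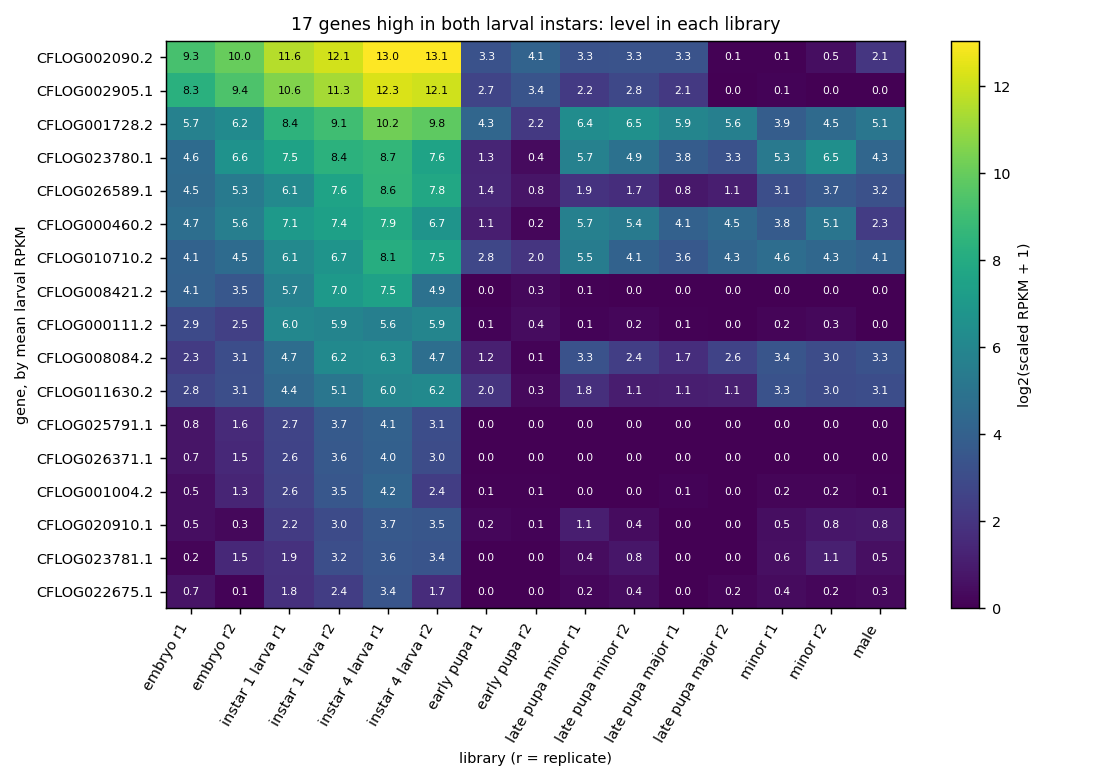
Level of each of the 17 genes (rows, ordered by mean larval RPKM) in each of the 15 libraries (columns), as log2(scaled RPKM + 1), with the value in each cell. All 17 rows are brightest in the 4 larval libraries, and embryo is second in 9 rows.

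The margin of 1.5 (log2) was cleared narrowly by many members. Its median over the 17 was 2.02, the smallest were 1.63 for CFLOG011630.2 and 1.64 for CFLOG010710.2, and the largest were 3.08 for CFLOG000111.2 and 2.37 for CFLOG008421.2. Just outside it lay CFLOG010831.2 at 1.489, held back by male, and CFLOG015997.2 at 1.319. At the cap on the larval difference, the member nearest to it was CFLOG010710.2 at -1.361 (instar 1 minus instar 4), and the nearest gene beyond it was CFLOG000597.1 at -1.501. CFLOG000597.1, with 27116 and 33251 RPKM in instar 1 and 28477 and 35739 in instar 4, missed the set only through this cap. It joined with scaling factors from CFLOG genes alone, with trimmed mean (TMM) factors, and when any of 7 of the 15 libraries was left out. With TMM factors computed without weights 18 genes met the rule, with all 17 members among them. Without the male library 21 genes met the rule, and without instar 4 larva replicate 1 14 genes did.

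Single libraries decided much of the membership. Without instar 1 larva replicate 2 only 6 genes met the rule, all of them among the 17, and without instar 1 larva replicate 1 25 did, with all 17 among them. On the deposited scale, without factors, 16 genes met it and 8 of the 17 were among these. CFLOG002090.2 was the only member kept under all 20 alternatives in scaling, pseudocount, library distance and left-out library, but it was among the 6 lost when the cap was set to 1. If every larval library, not the group mean, had to lie 1.5 above every other library, 3 genes remained, CFLOG002090.2, CFLOG001728.2 and CFLOG000111.2.

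**Figure D2:**
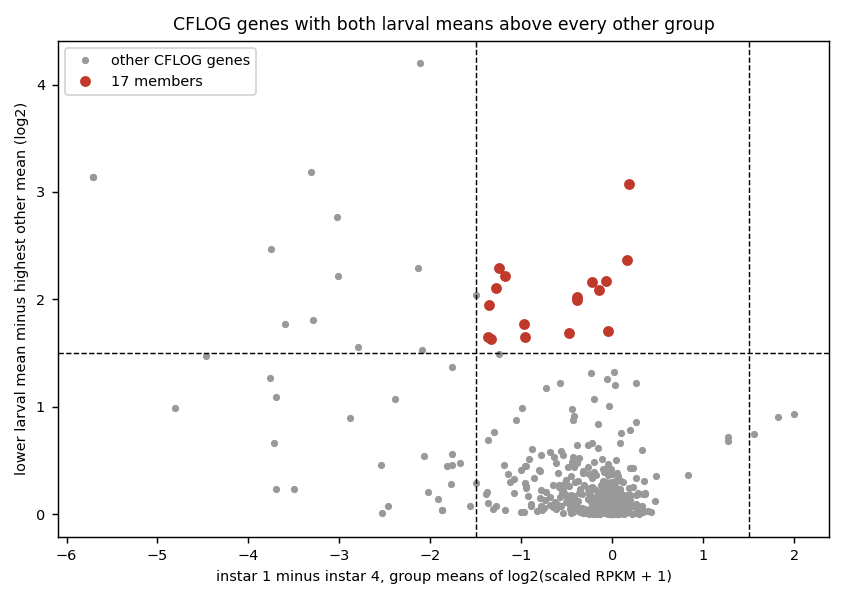
CFLOG genes whose larval means both exceed every other group. The horizontal axis is instar 1 minus instar 4 and the vertical axis the lower larval mean minus the highest other mean, both in log2 units of scaled RPKM + 1, with the rule as dashed lines. The 17 members lie in the upper middle, 13 further genes lie to their left (instar 4 higher) and 0 to their right.

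Of the 30 CFLOG genes whose larval means both met the margin, 13 were higher in instar 4 by the cap or more and 0 were higher in instar 1 by as much. This count depends on the scaling, with factors of 1.88 and 1.79 for instar 1 and 0.498 and 0.951 for instar 4. On the deposited scale several of these 13 met the whole rule, among them CFLOG009872.1 and CFLOG008052.2. The label of the set speaks of larva-limited genes, but the values do not bear that out for the embryo or, in part of the set, for later stages. Embryo was the highest group outside larvae for 9 members, and scaled embryo levels were 3.75% to 22.6% of the larval mean, with a median of 13.1%. For the remaining members the highest group was late pupa minor, minor or male. If embryo were left out of the rule, 30 genes would meet it, 13 of them held back by embryo alone. They are therefore called larva-high here. Early pupa was far lower, at 0% to 3.38% of the larval mean and with a median of 0.384%. The mean over late pupa and adult libraries ran from 0% (CFLOG025791.1 and CFLOG026371.1) to 15.8% (CFLOG000460.2) of the larval mean.

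The most abundant members were CFLOG002090.2 and CFLOG002905.1, at ranks 3 and 6 among CFLOG genes by mean scaled level in larvae. CFLOG002090.2 stood at 1429 and 1686 RPKM in embryo, 5815 and 8032 in instar 1, and 4193 and 8092 in instar 4. In early pupa it stood at 9.09 and 14.3 RPKM, in late pupa minor at 6.7 and 5.31, in late pupa major at 6.07 and 0.0537, in minor at 0.0544 and 0.217, and in male at 4.84. Every larval library was above every embryo library, and every embryo library was far above all later ones.

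CFLOG002905.1 followed the same course, with 715.8 and 1107 RPKM in embryo, 2906 and 4521 in instar 1, 2537 and 4267 in instar 4, and 5.48 and 8.26 in early pupa. It was at 2.85 and 3.49 in late pupa minor, 2.31 and 0 in late pupa major, 0.0842 and 0 in minor, and 0 in male. Across the 15 libraries the log2 levels of the pair correlated at r = 0.995 (description only, over libraries whose stages they share). The RPKM of CFLOG002090.2 was 1.65 to 2 times that of CFLOG002905.1 in the 4 larval libraries and 1.66 and 1.74 times in early pupa. It was 2 and 1.52 times in embryo, 2.35 and 1.52 times in late pupa minor and 2.62 times in late pupa major replicate 1. In male, 111 reads fell on CFLOG002090.2 and 0 on CFLOG002905.1, so its level was at least 23.9-fold higher there (floor of 3 reads in that library).

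**Figure D3:**
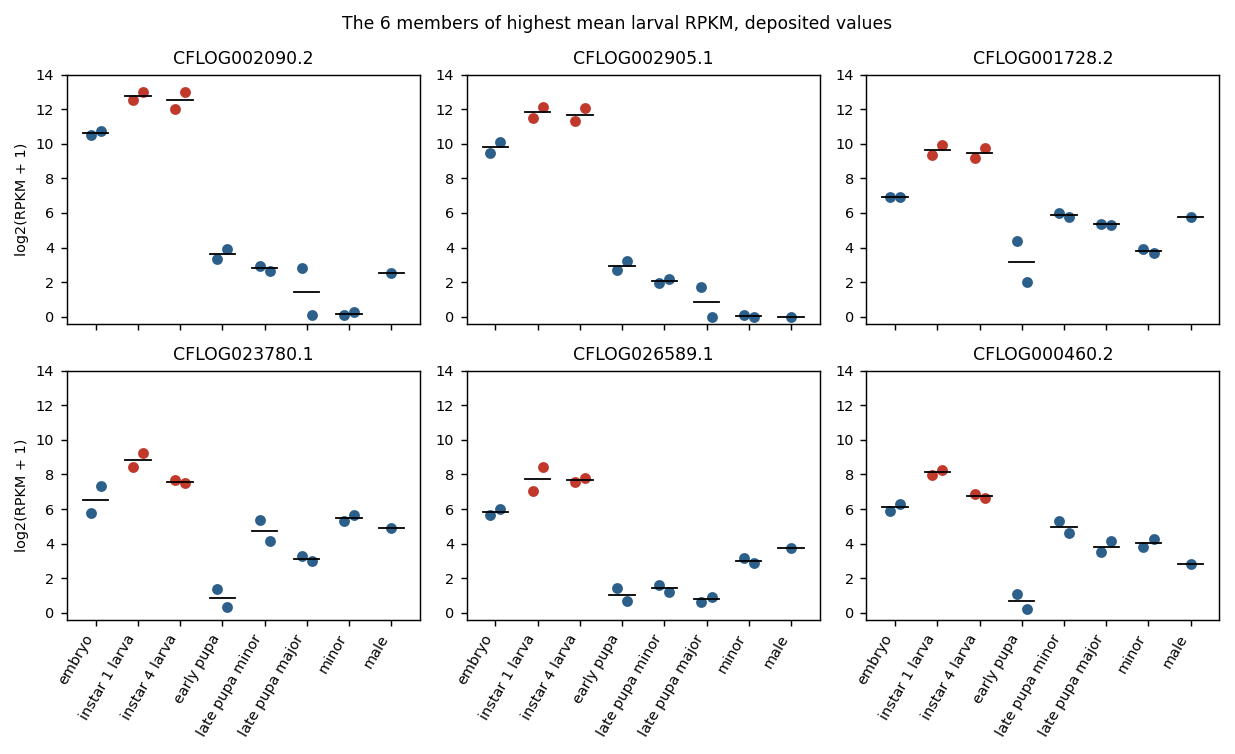
Deposited log2(RPKM + 1) of the 6 members with the highest mean larval RPKM, by group along the horizontal axis. Points are libraries, red for larvae and blue for other groups, and bars are group means. In the upper row, the first pair of genes drops to low levels in pupae and adults, and CFLOG001728.2 returns to 63 and 53.6 RPKM in late pupa minor.

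Low levels of this pair after the larval stages were unequal between libraries. CFLOG002090.2 was at 0.139% and 0.219% of its larval mean RPKM in early pupa, 0.103% and 0.0813% in late pupa minor, and 0.0929% in late pupa major replicate 1. It was at 0.000822% in late pupa major replicate 2, where it had 1 read. CFLOG002905.1 was at 0.154% and 0.232% in early pupa, 0.08% and 0.098% in late pupa minor, and 0.065% and 0% in late pupa major. In male, CFLOG002090.2 was at 0.0741% and CFLOG002905.1 at 0%. CFLOG000597.1, the gene just beyond the cap, also had 27.4 and 0 RPKM in late pupa major replicates 1 and 2. Over the 17 members, log2 levels in early pupa correlated with log2 larval levels at r = 0.81 and 0.86 (n = 17 genes measured in the same libraries, description only). In embryo r was 0.99 and 0.98, in late pupae 0.34 to 0.69, in minor 0.28 and 0.32, and in male 0.43. Whether reads carried over from larval libraries contribute to the low levels after the larval stages was not tested.

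CFLOG001728.2 came next in abundance, at rank 72, with 647.6 and 958.6 RPKM in instar 1 and 586.5 and 844.9 in instar 4. Embryo held 120.7 and 119.1 RPKM and early pupa 19.4 and 3.08. It was not lost later, with 63 and 53.6 RPKM in late pupa minor, 40.6 and 38.3 in late pupa major, 13.8 and 11.9 in minor and 52.4 in male. Its lowest larval library was above all others, and the early pupa libraries lay apart from each other.

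CFLOG023780.1 had 346.6 and 600 RPKM in instar 1 and 200.7 and 179.8 in instar 4, against 53 and 158.7 in embryo. It was nearly absent in early pupa, at 1.57 and 0.279 RPKM, where 17 and 3 reads fell on it. In late pupa minor it was at 39.7 and 16.5 RPKM, in late pupa major at 8.65 and 6.99, in minor at 38.9 and 48.8 and in male at 29.1. Adult RPKM stayed under both embryo libraries, but after scaling minor was the highest group outside larvae.

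CFLOG000460.2 had the same kind of gap. It was at 248.5 and 308.8 RPKM in instar 1, 116.5 and 99.8 in instar 4, 59 and 76.7 in embryo and 1.17 and 0.149 in early pupa. Late pupa minor held 39 and 23.7 RPKM, late pupa major 10.5 and 16.7, minor 13 and 18.3 and male 6.08.

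CFLOG026589.1 stood at 130.1 and 338.9 RPKM in instar 1, 188.3 and 218.4 in instar 4 and 50 and 62.9 in embryo. All 6 pupal libraries were between 0.544 and 2.11 RPKM, and minor (7.89 and 6.44) and male (12.7) were above them. CFLOG011630.2 was alike at a lower level, with 38.2 and 60.4 RPKM in instar 1, 30.9 and 69.7 in instar 4, 13.4 and 12.3 in embryo, 0.224 to 3 in the pupal libraries, 8.94 and 3.84 in minor and 11.3 in male. For both genes the adult libraries exceeded every pupal library.

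CFLOG010710.2 had 130.9 and 187.2 RPKM in instar 1, 138.5 and 167 in instar 4, 38.3 and 36.2 in embryo and 6.03 and 2.66 in early pupa. Its late pupa minor libraries disagreed, at 34 and 9.24 RPKM, and minor held 24.6 and 10.6. CFLOG008084.2 had 46.1 and 129.5 RPKM in instar 1 and 38.7 and 23.9 in instar 4, 9.06 and 12 in embryo, and 1.28 and 0.0794 in early pupa. It reached 6.81 and 2.55 RPKM in late pupa minor and 13.2 in male, so male was above both embryo libraries.

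Another part of the set was at or near 0 after the larval stages. CFLOG008421.2 had 93.1 and 228.8 RPKM in instar 1, 88.6 and 26.9 in instar 4 and 36.9 and 17.4 in embryo, and was at 0.186 RPKM or less in every pupal and adult library. Its instar 4 libraries lay 2.61 log2 units apart after scaling, the widest gap between larval replicates of any member, and on the deposited scale the lower of them was under one of the embryo libraries. CFLOG000111.2 had 121.1 and 102.9 RPKM in instar 1, 23.9 and 56.8 in instar 4, 15.5 and 7.23 in embryo and at most 0.286 later. At most 5 reads fell on either gene in any late pupa or adult library, against 882 or more in every larval library.

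CFLOG025791.1 and CFLOG026371.1 cannot be counted as separate measurements. Their reads were equal in all 15 libraries, at 12 and 39 in embryo, 107 and 163 in instar 1, 107 and 74 in instar 4, and 0 in each of the other 9. Their RPKM differed only through length, 450 nt against 471 nt, so that instar 1 stood at 9.98 and 21.4 RPKM for the first and at 9.53 and 20.5 for the second. Equal reads can come from copies that share sequence or from a read counted for both, which the files do not settle. Counted as 1 gene, the set holds 16.

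CFLOG001004.2 was also low outside larvae and embryo, with 9.36 and 19.1 RPKM in instar 1, 8.66 and 3.94 in instar 4, 0.918 and 2.44 in embryo, and 0.156 or less later. The 3 remaining members rest on few reads. CFLOG020910.1 had 243 to 326 reads in the larval libraries (5.81 to 12.2 RPKM) and 1.2 RPKM in male. CFLOG023781.1 had 49 to 101 reads (4.9 to 14.2 RPKM) and 0 in early pupa and late pupa major. CFLOG022675.1 had 27 to 83 reads (2.09 to 7.35 RPKM) and 0 in early pupa.

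CFLOG023781.1 bears the number next to that of CFLOG023780.1, the only members with adjacent numbers. Sources used here do not say what the numbers follow. The RPKM of CFLOG023780.1 was 20.2 to 70.8 times that of its numerical neighbour in the 4 larval libraries, so their levels were not in a fixed ratio. It was 53.6 times in embryo replicate 2 and 43.3 times in male, inside the larval range. In minor it was 79.7 and 73 times, where only 7 and 6 reads fell on CFLOG023781.1. In male 6 reads did.

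Lengths recovered from the value steps were available for all 17. They ran from 372 nt (CFLOG023780.1) to 4708 nt (CFLOG010710.2), with a median of 1209 nt against 969 nt over the 13780 CFLOG genes with a length. Of the members, 16 had a length that is a multiple of 3, as had 92.2% of CFLOG genes with a length, so these are mostly coding lengths. Members under 600 nt numbered 5 of 17, against 31.1% of CFLOG genes. Neither measure was tested.

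Instar 1 and instar 4 levels were ordered by the scale used. After scaling, 15 of 17 members were higher in instar 4, with a median instar 1 minus instar 4 difference of -0.48 (log2). In mean log2(RPKM + 1) without scaling all 17 were higher in instar 1 and the median was 0.69, while the median over all tested genes was 1.03 in the same direction. By mean RPKM 16 were higher, since CFLOG011630.2 stood at 49.3 in instar 1 and 50.3 in instar 4. CFLOG010710.2 (-1.36), CFLOG026589.1 (-1.35) and CFLOG011630.2 (-1.33) lay furthest toward instar 4 after scaling, and CFLOG000111.2 (0.18) and CFLOG008421.2 (0.16) were the only members above 0. The rule caps this difference, so it was not tested. In instar 1, 16 of 17 members were higher in replicate 2 than in replicate 1 after scaling, with gaps of up to 1.53 log2 units. Without instar 4 larva replicate 1 the median was 0.02, and without replicate 2 it was -1.14.

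Differences among the groups outside larvae were tested, since the rule puts a ceiling on these groups but does not set how they differ from each other. limma was fitted to 10619 genes on the scaled log2 values with all 15 libraries, and all p-values are adjusted by Benjamini-Hochberg over all genes tested. All 17 members entered, but CFLOG025791.1, CFLOG026371.1, CFLOG001004.2, CFLOG020910.1 and CFLOG022675.1 did so only through their larval libraries. For early pupa against embryo the count over the other 12 is also given. In the other comparisons every call made before alternatives were tried fell on these 12, so their counts are the same.

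Between embryo and early pupa 13 of 17 members fell and 0 rose, against 12% of all genes tested that fell (1276 of 10619) and 10.3% that rose. With the gene pair of equal reads counted as 1, the count was 12 of 16, and over the 12 members that pass the filter without larvae it was 11. The median difference over the 17 was -2.03, over the 12 that pass the filter without larvae -3.19, and over all genes 0. The largest decreases were those of CFLOG002090.2, from a mean log2 level of 9.64 to 3.72 (difference -5.93 ± 0.73, SE, adjusted p = 0.00013), and of CFLOG002905.1 (-5.81 ± 0.58, adjusted p = 2.9e-05). CFLOG023780.1 fell by 4.73 ± 0.65 (adjusted p = 0.00027) and CFLOG000460.2 by 4.49 ± 0.49 (adjusted p = 5.6e-05). The members that did not pass were CFLOG001004.2 (-0.83), CFLOG023781.1 (-0.83), CFLOG022675.1 (-0.4) and CFLOG020910.1 (-0.2), all of them at under 3 RPKM in both groups.

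The direction in this comparison held in every library pair. Each member, and so each of the 12 that pass the filter without larvae, was lower in both early pupa libraries than in both embryo libraries after scaling. The same held for 36.7% of all genes tested. For CFLOG022675.1 (embryo replicate 2) and CFLOG023781.1 (embryo replicate 1) this rests on 2 reads, under the floor of 3, against 0 in early pupa. Of the 13 calls, 8 held under every alternative tried. Without embryo replicate 2 and without early pupa replicate 2 the count was 8, and CFLOG010710.2, CFLOG008084.2, CFLOG011630.2, CFLOG025791.1 and CFLOG026371.1 were the calls that ended. With a pseudocount of 0.1 CFLOG001004.2, which entered only through its larval libraries, and CFLOG023781.1 passed as well. With unscaled RPKM the split was 423 genes up and 4019 down, against 1097 and 1276, and the median of all genes was -0.82. Relative to that shift the picture for the members stayed, with 15 that fell and a median of -2.92 over the 17.

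**Figure D4:**
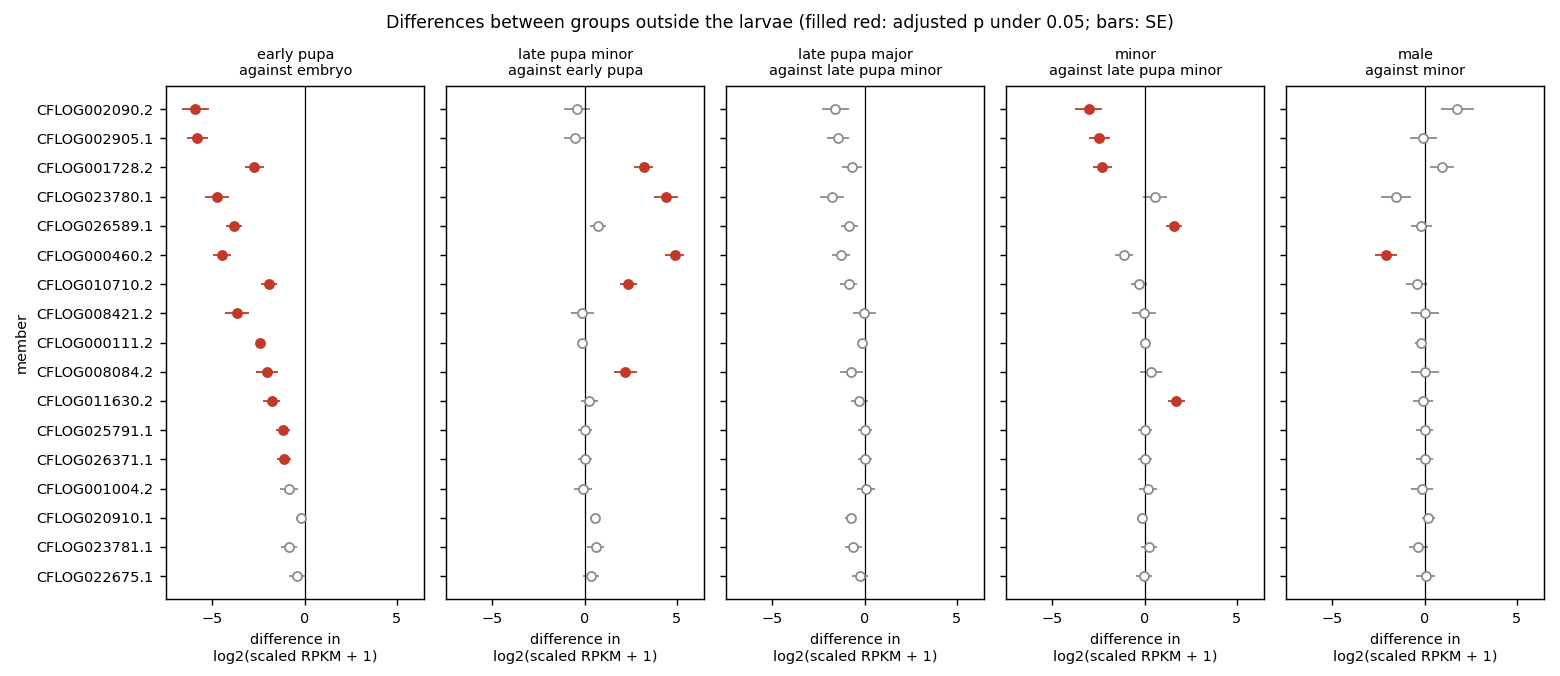
Differences of the 17 members in the 5 comparisons tested, in log2(scaled RPKM + 1), with bars for limma's SE and filled red points for an adjusted p under 0.05. From left to right, 13, 5, 0, 5 and 1 members pass, and the 5 that pass in the second panel all lie to the right of 0.

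Between early pupa and late pupa minor 5 of 17 members rose and 0 fell, against 14.2% of all genes that rose and 12% that fell. The 5 are among the 12 members that pass the filter without larvae. CFLOG025791.1 and CFLOG026371.1 had 0 reads in both groups, and CFLOG023781.1 and CFLOG022675.1 had 0 in early pupa, so these could not fall. CFLOG001004.2, CFLOG008421.2, CFLOG020910.1 and CFLOG000111.2 had little room to fall, with mean log2 levels of 0.07 to 0.28 in early pupa. The count of 0 that fell therefore says little about these genes. CFLOG000460.2 rose most, by 4.88 ± 0.49 log2 units (SE, adjusted p = 2.8e-05), and CFLOG023780.1 by 4.42 ± 0.65 (adjusted p = 0.00045). CFLOG001728.2 rose by 3.2 ± 0.53 (adjusted p = 0.0011), CFLOG010710.2 by 2.38 ± 0.45 (adjusted p = 0.0024) and CFLOG008084.2 by 2.22 ± 0.61 (adjusted p = 0.019). The early pupa libraries also enter the comparison with embryo, so the differences in both depend on the same values. The early pupa replicates were unequal for these genes, with replicate 1 the higher on the deposited scale in each.

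The first 4 of these rises held under all 9 alternatives. That of CFLOG008084.2 ended without early pupa replicate 2, without late pupa minor replicate 1 and with no filter, with adjusted p between 0.0084 and 0.15 over its alternatives. On the deposited scale 514 of all genes rose and 969 fell (median -0.28), against 1506 and 1279 after scaling, and the same 5 members rose. The other 12 members did not pass, with differences between -0.51 (CFLOG002905.1) and 0.72 (CFLOG026589.1). With a pseudocount of 0.1, CFLOG020910.1 and CFLOG023781.1 rose as well. The first entered the test only through its larval libraries. The second had 3 reads in each late pupa minor library, no more than the floor, and 0 in early pupa.

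Between late pupae of the major and minor castes 0 of 17 members passed in limma, and only 1.47% of all genes did, so the count says little about the members. At an unadjusted p under 0.05 there were 5 members and 22.9% of all genes. The 5 include CFLOG020910.1, which entered the test only through its larval libraries. The estimate was lower in major for 14 members and higher for 1, and it was lower for 49.1% of all genes. CFLOG020910.1 and CFLOG022675.1, which also entered only through larval libraries, are among the 14. The members share the same 4 libraries, and no test of this count was made. The estimate was largest for CFLOG023780.1, at -1.75 ± 0.65 (SE, adjusted p = 0.15), followed by CFLOG002090.2 at -1.6 ± 0.73 (adjusted p = 0.21) and CFLOG002905.1 at -1.45 ± 0.58 (adjusted p = 0.17). Both major libraries were below both minor libraries for 9 members and for 25.4% of all genes. Among the 9 were CFLOG020910.1 and CFLOG022675.1, which entered only through larvae. For CFLOG000111.2, CFLOG023781.1 and CFLOG022675.1 the order rests on at most 3 reads per library, no more than the floor of 3. Without late pupa major replicate 1, CFLOG002090.2 and CFLOG002905.1 passed; the remaining major library had 1 and 0 reads on them.

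Between late pupa minor and minor 2 members rose and 3 fell, against 18.3% of all genes that rose and 15% that fell. CFLOG011630.2 rose by 1.72 ± 0.45 (SE, adjusted p = 0.011) and CFLOG026589.1 by 1.6 ± 0.45 (adjusted p = 0.017). CFLOG002090.2 changed by -3.03 ± 0.73 (adjusted p = 0.0073), CFLOG002905.1 by -2.46 ± 0.58 (adjusted p = 0.0066) and CFLOG001728.2 by -2.29 ± 0.53 (adjusted p = 0.0063). The first pair of decreases starts from levels of 0.103% of the larval mean or less. Only the fall of CFLOG001728.2 held under all 9 alternatives. Both rises ended without late pupa minor replicate 2 (adjusted p = 0.08 and 0.073) and with no filter, that of CFLOG011630.2 also without minor replicate 1 (0.054), that of CFLOG026589.1 without minor replicate 2 (0.13), and the fall of CFLOG002905.1 without minor replicate 2 (0.053). The fall of CFLOG002090.2 ended with no filter (0.055). Without minor replicate 2, CFLOG000460.2 passed as well. On the deposited scale 1212 of all genes rose and 556 fell, against 1945 and 1591 after scaling, and the same 5 members passed.

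The male library was compared with the minor libraries, and its spread was assumed to equal that of the other groups, so a call here rests on 1 library. CFLOG000460.2 was lower in male, at 6.08 RPKM against 13 and 18.3 (difference -2.11 ± 0.6, SE, adjusted p = 0.043), and it was the only member to pass, against 6.7% of all genes lower in male and 4.82% higher. This call ended under 5 of 7 alternatives: on the deposited scale (-1.21, adjusted p = 0.15), without minor replicate 2 (-1.45, adjusted p = 0.25), with a pseudocount of 0.1, with no filter and with the replicate block. With unscaled RPKM the split over all genes was 1221 above minor and 106 below it (median shift 0.61), against 512 and 712 after scaling. CFLOG002090.2 was then the only member to pass, higher in male.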

How the data were processed

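The deposited table holds RPKM values made by the authors, one column per library, per the file headers and the values, for 18979 genes, 18620 CFLOG and 359 XLOC. The libraries keep the strand (dUTP), per the labels' protocols. The submitters' processing notes list STAR 2.5.0b and DESeq2 without a role. Build, annotation and counting: not given in the sources used here. Columns were matched by their headers, and 0 were left without a sample. Of the identifiers 0 matched the 14020 RefSeq genes.

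Reads and lengths were recovered from the steps of the values (14136 genes, 99.99% of values under 1000 reads whole within 0.05, which partly follows from how lengths were chosen). In a simulated table of 18979 genes, 71.9% received a length, 99.8% of them correctly. They were used for depth, floors and lengths, not for tests.

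The scaled values, as log2(scaled RPKM + 1), were fitted with limma 3.58.1 (R 4.3.3), with 1 term per group, all 15 libraries and a trended eBayes step. Genes needed a scaled RPKM of 1 in 2 or more libraries. Tests were two-sided at 0.05. Such differences understate the change of low genes. As another scaling, weighted trimmed means of log ratios (TMM) were computed from the RPKM with the standard formula, and, as an alternative chosen after seeing the data, without weights. Fit and rule were also run on simulated data, with means and spreads for the fit taken from these libraries. No replicates had identical columns (0% equal values above 0). The members, the rule and the tests were chosen with earlier results of these data known. Alternatives were other factors, pseudocount 0.1, no filter, each library left out, other margins and caps, and a replicate block. Named genes were to be the most abundant members, those nearest to and furthest from the thresholds, the largest changes past the threshold, those most often at 0 and those with the widest replicate gaps. In the end all 17 members are named.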

Additional observations from a re-analysis of the deposited data

How the results depend on the processing

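The number of larva-high genes was 17, and it was 27 and 9 with a margin of 1 and 2, 11 with a cap of 1, 3 when single libraries replaced group means, and 30 without embryo in the rule (chosen after seeing the data). It was 19 with TMM factors and 18 with TMM factors without weights. Leaving out single libraries gave 6 to 25. The median instar 1 minus instar 4 difference turned from -0.48 to 0.69 on the deposited scale, where the factors are not applied, and ran from -1.14 to 0.02 with a larval library left out. Over the 24 calls of members in the tests, 214 alternatives were run, of which 175 kept the call, 39 ended it and 0 turned its direction.

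Members called between embryo and early pupa were 8 with no filter and 8 to 11 with a library left out, against 13. For minor against late pupa minor they were 2 with no filter and 3 to 5, against 5. For the castes they were 0 to 2, against 0, and for male against minor 0 with a pseudocount of 0.1, with no filter and with the replicate block, and 0 to 1 with a library left out, against 1. Cause was not tested in any of these.

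All genes called on the deposited scale numbered 4442 for early pupa against embryo (2373 after scaling), 1483 for late pupa minor against early pupa (2785), 46 for the castes (156) and 1768 for minor against late pupa minor (3536). The castes gave 32 with a pseudocount of 0.1. Left-out libraries gave 974 to 1658, 1418 to 2338, 27 to 368 and 1851 to 3790 in these comparisons, and 252 to 2769 for male against minor (1224), which had 598 with the replicate block.

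Differences between replicates 1 and 2 correlated between groups at -0.36 to 0.23, over 0.1 in 4 of 21 group pairs. Whether samples of equal replicate number share an origin is not given in the labels, and these correlations cannot settle it. With the replicate block 11, 5, 0, 5 and 0 members were called in the 5 comparisons, against 13, 5, 0, 5 and 1. Depth limits the 6 members with at most 484 reads in any larval library.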
